A study of Homo sapiens with 6 samples.

Results

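To describe innate immune signaling upon PQBP1 depletion, the mRNA levels of 9 genes were followed in HEY cells. These were cGAS (CGAS), STING (STING1, listed under its older name TMEM173), the kinases TBK1 and IKBKE, and the transcription factors IRF1, IRF3, IRF7, IRF9 and STAT2. They were taken from the gene table by name, as known parts of the pathway, and all 9 had a row among the 32679 genes. HEY is an established human ovarian cancer cell line. The stable lines carried a lentiviral hairpin vector that was selected with puromycin, and the hairpin against PQBP1 was switched on by doxycycline. Poly(A) RNA was sequenced as paired-end Illumina reads. The labels name no doxycycline for the control group (shNC, 3 samples), and 1 µg per ml for the knockdown group (shPQBP1, 3 samples). All 6 samples are labelled day 3, while the methods of the study name 48 or 72 h. On these labels, the hairpin and doxycycline itself cannot be told apart. No interferon, DNA or virus is named as an added agent. The samples are described as biological replicates, and p-values measure only the spread between them.

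cGAS is an enzyme that binds double-stranded DNA in the cytosol and makes the cyclic dinucleotide cGAMP. cGAMP binds STING on the endoplasmic reticulum, and STING then moves to the Golgi and recruits TBK1 and the related kinase IKKε, the product of IKBKE. These kinases phosphorylate IRF3 and IRF7, which enter the nucleus and switch on type I interferon genes. Secreted interferon acts through its receptor and the JAK kinases to assemble ISGF3, a complex that holds STAT2 and IRF9, on interferon-stimulated genes, and IRF1 is a further activator of many of the same genes. PQBP1 is a splicing regulator that has also been described as an adaptor of cGAS for some retroviral DNA. Much of this pathway is controlled on the proteins, and the values here are of mRNA only.

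Levels are given as FPKM, the number of fragments divided by transcript length and by the mapped fragments of that library, which allow genes of different length to be set side by side. PQBP1 itself read 7.18, 6.67 and 6.93 FPKM in the shNC samples and 1.68, 1.72 and 1.44 FPKM in the shPQBP1 samples. The knockdown thus held in each of the 3 shPQBP1 samples, with a log2 fold change of -2.04 (SE 0.10, adjusted p = 0.00154). The cytokeratin genes KRT7, KRT8 and KRT18 were expressed in all samples, whereas CDH1 and MUC16 were at or near 0. Of 10 leukocyte markers 5 had a row. PTPRC, which marks all leukocytes, was listed at 0 in all 6 samples, and the sum of the list (9.89 to 16.17 FPKM in shNC and 12.57 to 21.53 FPKM in shPQBP1) was mostly CD68, a lysosomal gene that is not confined to macrophages. In such bulk samples, fewer cells of a type and less RNA per cell cannot be told apart. The library labelled shNC replicate 1 stood somewhat apart, with correlations of 0.926 to 0.955 with the other samples, and its deviation from the other shNC samples followed the GC content of the transcripts (Spearman rho 0.61 over 11385 genes). The same measure gave rho -0.52 and -0.44 for shNC replicates 2 and 3, and -0.32, 0.40 and -0.11 for shPQBP1 replicates 1 to 3. Each deviation was taken from the other 2 samples of the group, so these values are not independent. Those of shNC replicates 2 and 3 include the shift of shNC replicate 1. For the 9 genes, values without shNC replicate 1 are therefore also given. The sequencing depth of the samples is unknown.

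None of the 9 genes changed at an adjusted p under 0.05 in the fit over 11413 genes, where 2.91% of all tested genes did. At an unadjusted p under 0.05 there were 3 of 9 genes (IRF7, IRF1 and IKBKE), each with a lower mean in shPQBP1, beside 23.6% of all tested genes. No gene of the 9 passed a fold change of 2 with an unadjusted p under 0.05, a threshold that 1.52% of tested genes passed. The 3 shNC values and the 3 shPQBP1 values did not overlap for 3 of the 9 genes (IRF7, IRF1 and cGAS), beside 34.4% of tested genes. These shares come from few genes and lie close to, or for the first count below, those of all genes. The log2 fold changes of the 9 genes ran from -0.60 to 0.44 with a median of -0.08, and the median of all tested genes was 0.02. With 3 samples a group, the exact permutation test of a single gene cannot give a p under 0.1.

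**Figure D1:**
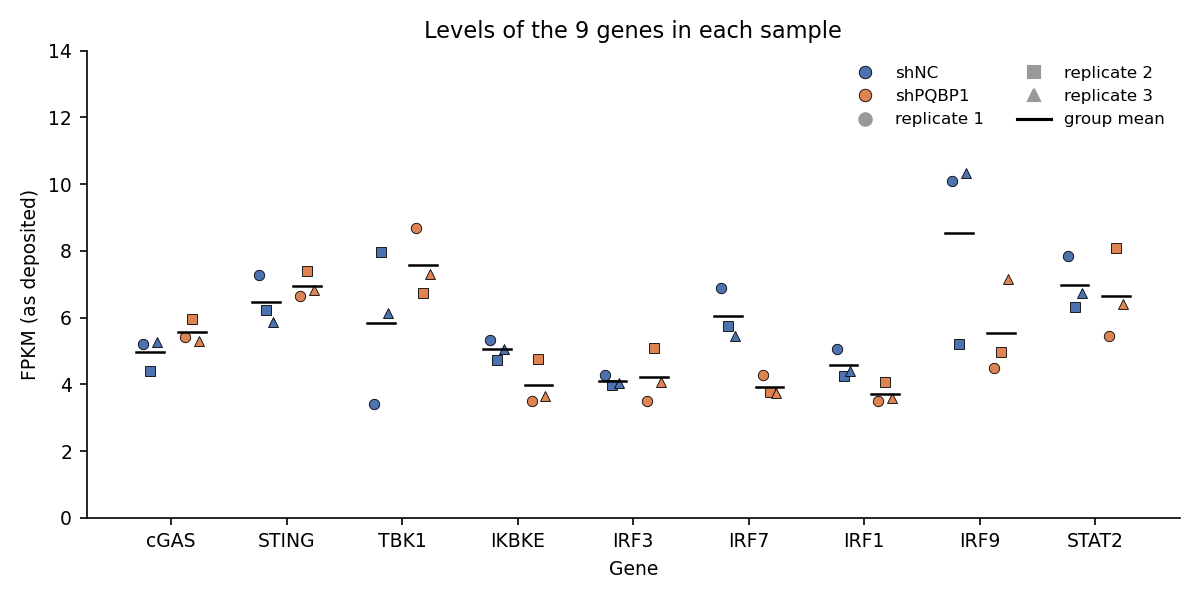
FPKM of each of the 9 genes on a linear axis, with 1 symbol per sample (blue for shNC, orange for shPQBP1, the symbol shape for the replicate number) and a bar at the group mean. IRF7 is the gene whose groups are most clearly apart, at 5.46 to 6.9 against 3.74 to 4.28 FPKM, while TBK1 and IRF9 spread most among the shNC samples.

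The DNA sensor and its adaptor were expressed at moderate levels and differed little between the groups. cGAS (ENSG00000164430, chr6:73413515-73452297, minus strand, 5 exons in its canonical transcript) read 5.20, 4.39 and 5.28 FPKM in shNC and 5.42, 5.97 and 5.29 FPKM in shPQBP1. All 3 knockdown samples lay above all 3 controls, but the nearest values of the 2 groups were 5.28 and 5.29 FPKM. The log2 fold change was 0.17 (SE 0.11, 95% interval -0.09 to 0.42, adjusted p = 0.365), and the exact permutation p was 0.1, the smallest possible. STING (ENSG00000184584, chr5:139475533-139482935, minus strand, 8 exons) read 7.29, 6.24 and 5.86 FPKM in shNC and 6.65, 7.41 and 6.82 FPKM in shPQBP1. Its groups overlapped, since shNC replicate 1 was above 2 of the 3 knockdown samples. The log2 fold change of STING was 0.11 (SE 0.11, 95% interval -0.15 to 0.37, adjusted p = 0.545). Expressed as a fold, the intervals run from 0.938 to 1.34 for cGAS and from 0.9 to 1.29 for STING, so a change of 1.5 times lies outside both intervals. Without shNC replicate 1 the log2 fold changes were 0.20 for cGAS (adjusted p = 0.322) and 0.20 for STING (adjusted p = 0.208). That of cGAS was 0.08 without shNC replicate 2 (adjusted p = 0.631), and that of STING was 0.04 without shNC replicate 3 (adjusted p = 0.839).

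The 2 kinases downstream of STING had means on opposite sides. TBK1 (ENSG00000183735, chr12:64452090-64502114, plus strand, 21 exons), the main kinase of the pathway in most cells, read 3.41, 7.98 and 6.14 FPKM in shNC and 8.70, 6.73 and 7.31 FPKM in shPQBP1. The lowest value was shNC replicate 1, and shNC replicate 2 was above 2 of the 3 knockdown samples. The log2 fold change of TBK1 was 0.44 (SE 0.31, 95% interval -0.30 to 1.18, adjusted p = 0.392). Without shNC replicate 1 it was 0.11 (adjusted p = 0.719), and without shNC replicate 2 it was 0.71 (limma unadjusted p = 0.043, adjusted p = 0.183). The interval reaches past 2-fold, from 0.814 to 2.27 times, so that a moderate change of TBK1 was not detectable with these samples. IKBKE (ENSG00000263528, chr1:206470476-206496889, plus strand, 22 exons), whose product IKKε is more restricted and can itself be induced by inflammatory signals, read 5.33, 4.74 and 5.07 FPKM in shNC and 3.51, 4.75 and 3.65 FPKM in shPQBP1. Replicates 1 and 3 of shPQBP1 were below all controls, whereas replicate 2 lay at the level of the lowest control. Its log2 fold change was -0.35 (SE 0.14, 95% interval -0.68 to -0.02, unadjusted p = 0.0403, adjusted p = 0.192), and -0.31 without shNC replicate 1 (adjusted p = 0.279).

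IRF3 and IRF7, the factors phosphorylated by these kinases, also differed from each other. IRF3 (ENSG00000126456, chr19:49659569-49665875, minus strand, 8 exons), which is made in most cells before any stimulus, read 4.29, 3.97 and 4.03 FPKM in shNC and 3.51, 5.08 and 4.07 FPKM in shPQBP1. The knockdown samples lay on both sides of the controls, and the log2 fold change was 0.03 (SE 0.14, 95% interval -0.32 to 0.38, adjusted p = 0.922). It was 0.06 without shNC replicate 1, and its sign turned, to -0.11, without shPQBP1 replicate 2. IRF7 (ENSG00000185507, chr11:612553-615983, minus strand, 11 exons), which is itself an interferon-stimulated gene and amplifies the response, read 6.90, 5.75 and 5.46 FPKM in shNC and 4.28, 3.78 and 3.74 FPKM in shPQBP1. Every knockdown sample was below every control, with means of 6.04 ± 0.762 and 3.93 ± 0.301 FPKM (SD, n = 3 each), a ratio of 1.53. In this fit IRF7 had the largest absolute log2 fold change of the 9 genes, at -0.60 (SE 0.12, 95% interval -0.89 to -0.31, unadjusted p = 0.00207). Its adjusted p of 0.0555 missed the threshold, and under the alternative settings tried it ranged from 0.0541 to 0.196, the lowest being that without shNC replicate 1 (log2 fold change -0.50). Of all tested genes, 3.1% had a lower log2 fold change.

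Among the factors of the interferon response itself, IRF1 (ENSG00000125347, chr5:132440440-132508719, minus strand, 10 exons) read 5.05, 4.24 and 4.41 FPKM in shNC and 3.49, 4.08 and 3.58 FPKM in shPQBP1. The groups did not overlap, and the log2 fold change was -0.29 (SE 0.11, 95% interval -0.56 to -0.02, unadjusted p = 0.0378, adjusted p = 0.187), and -0.22 without shNC replicate 1 (adjusted p = 0.249). IRF9 (ENSG00000213928, chr14:24161234-24168043, plus strand, 9 exons), the DNA-binding subunit of ISGF3, read 10.09, 5.22 and 10.33 FPKM in shNC and 4.49, 4.97 and 7.15 FPKM in shPQBP1. The controls fell into a low value (replicate 2) and a pair of high ones, and the low control lay within the range of the knockdown samples. The log2 fold change of IRF9 was -0.58 with an SE of 0.31 (95% interval -1.33 to 0.17, adjusted p = 0.294). Without shNC replicate 2 it was -0.90 (adjusted p = 0.119), and without shNC replicate 1 it was -0.43 (adjusted p = 0.487). STAT2 (ENSG00000170581, chr12:56341597-56360203, minus strand, 24 exons), the subunit that carries the transactivation domain of ISGF3, read 7.85, 6.33 and 6.73 FPKM in shNC and 5.44, 8.10 and 6.41 FPKM in shPQBP1. The groups overlapped broadly, with a log2 fold change of -0.08 (SE 0.17, 95% interval -0.48 to 0.32, adjusted p = 0.781), and the sign turned to 0.01 without shNC replicate 1 and to 0.05 without shPQBP1 replicate 1.

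Some of these values share sequence with neighboring genes, and the sources used here do not state whether strand was used in counting. In GENCODE release 44, IRF9 shares 1544 of its 6471 exonic bases, on the same strand, with the read-through gene ENSG00000259529, which was listed at 6.92, 5.34 and 4.47 FPKM in shNC and 6.51, 8.72 and 6.04 FPKM in shPQBP1. The division of fragments between this gene and IRF9 is therefore uncertain. IRF3 shares 734 of 3794 exonic bases with BCL2L12 on the opposite strand (6.36 to 8.06 FPKM in shNC and 5.10 to 5.61 FPKM in shPQBP1). IRF1 shares 2805 of 12265 with IRF1-AS1, an antisense RNA that was listed at 0.22 FPKM or less in all samples. The table holds 1 value per gene, whereas GENCODE lists between 3 (cGAS) and 29 (IRF3) transcripts for each, so that changes between isoforms were not measured here.

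**Figure D2:**
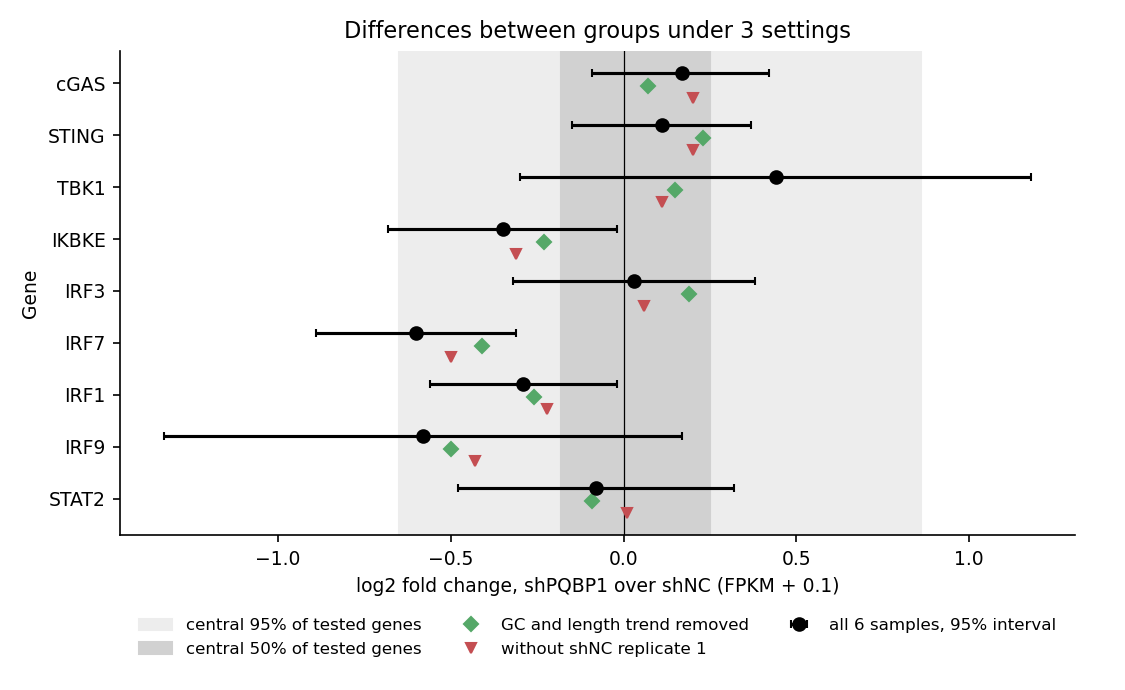
Log2 fold change (shPQBP1 over shNC, on log2 of FPKM + 0.1) of the 9 genes, with black points and 95% intervals from limma for all 6 samples, green diamonds after removal of the GC and length trend, and red triangles without shNC replicate 1. The light band spans the central 95% of tested genes (-0.65 to 0.86) and the dark band the central 50% (-0.18 to 0.25). All 9 points lie within the light band, and the intervals of IRF7, IRF1 and IKBKE leave out 0.

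The levels of the 9 genes were close together, with means over all samples between the 40.4th and 57.5th percentiles of tested genes. In shNC the order from high to low was IRF9 (8.55 ± 2.88 FPKM), STAT2 (6.97 ± 0.788), STING (6.46 ± 0.741), IRF7 (6.04 ± 0.762), TBK1 (5.84 ± 2.30), IKBKE (5.05 ± 0.296), cGAS (4.96 ± 0.492), IRF1 (4.57 ± 0.427) and IRF3 (4.10 ± 0.170). In shPQBP1 the order was TBK1 (7.58 ± 1.01 FPKM), STING (6.96 ± 0.399), STAT2 (6.65 ± 1.35), cGAS (5.56 ± 0.361), IRF9 (5.54 ± 1.42), IRF3 (4.22 ± 0.796), IKBKE (3.97 ± 0.679), IRF7 (3.93 ± 0.301) and IRF1 (3.72 ± 0.318), each as mean ± SD of 3 samples. In both groups the ranges of every pair of neighbors in the order overlapped, so that neither order is resolved step by step. Between shNC and shPQBP1, IRF7 went from the 4th to the 8th place, IRF9 from the 1st to the 5th, TBK1 from the 5th to the 1st and cGAS from the 7th to the 4th.

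Across the 6 samples, IKBKE and IRF1 followed each other most closely of the 36 pairs (Pearson r = 0.95 on the log2 scale), followed by IRF3 and STAT2 (r = 0.92). TBK1 ran opposite to IRF1 (r = -0.85), while cGAS and STING had r = 0.53. Of all tested genes, those most like cGAS over the 6 samples were DDX39A (r = 0.987), TUFT1 (r = 0.985) and PTGIR (r = 0.984), and those most like STING were TCTN2 (r = 0.997), STK16 (r = 0.994) and SLC35C1 (r = 0.987). These correlations describe 6 points that share their libraries and their base composition trend, and the genes most like cGAS and STING were searched among 11413.

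Fold change followed base composition in these libraries. Over 11385 genes with a canonical transcript, the log2 fold change and the GC content of the transcript had a Spearman rho of -0.46, and over the 9 genes rho was -0.65. TBK1, the most AT-rich of the 9 genes (37.0% GC), had the highest log2 fold change, and IRF7, the most GC-rich (66.6%), had the lowest. With the dependence on GC content and length taken out sample by sample, the log2 fold change of TBK1 went from 0.44 to 0.15, that of IRF7 from -0.60 to -0.41 (adjusted p = 0.0545) and that of IRF1 from -0.29 to -0.26 (adjusted p = 0.0872). IKBKE went from -0.35 to -0.23, where its unadjusted p by limma was 0.0751, and cGAS went from 0.17 to 0.07. STING went the other way, from 0.11 to 0.23 (adjusted p = 0.0761), with an unadjusted p of 0.00988, and so did IRF3, from 0.03 to 0.19 (adjusted p = 0.355). None of the 9 genes passed an adjusted p of 0.05 after this correction, when 8.84% of all genes did. The part of base composition in the uncorrected differences was not tested further.

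**Figure D3:**
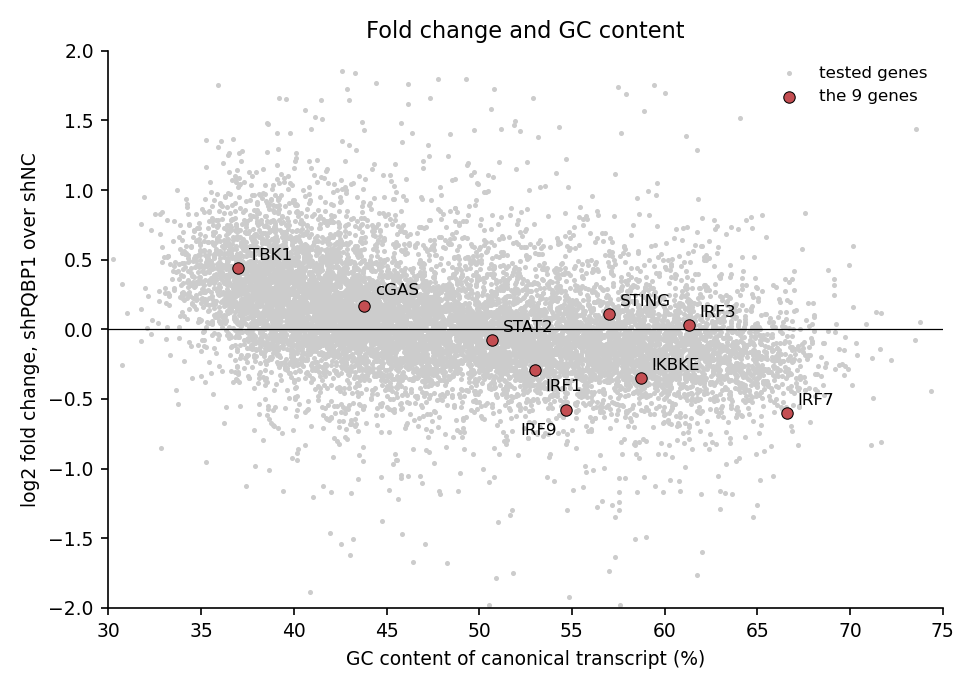
Log2 fold change (shPQBP1 over shNC) against the GC content of the canonical transcript in percent, with grey points for tested genes and red points for the 9 genes. Genes outside the limits of the axes are not drawn. The cloud slopes downward (Spearman rho -0.46 over 11385 genes), with TBK1 at its upper left and IRF7 at its lower right.

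Of 149 other genes of the pathway in 8 lists, 138 had a row and 115 were tested. Of these, 1 rose and 3 fell at an adjusted p under 0.05, beside 2.91% of all tested genes. After the GC and length correction 18 of 115 (15.7%) passed, beside 8.84% of all genes in that fit. At an unadjusted p under 0.05 there were 36 (13 higher and 23 lower), beside 23.6% of all tested genes, 42 had groups that did not overlap, beside 34.4%, and the median log2 fold change was -0.01.

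Among 13 tested regulators and partners of cGAS, PQBP1 itself was the only one past the adjusted threshold, beside 2.91% of all tested genes. At an unadjusted p under 0.05 there were 4 (2 higher and 2 lower), beside 23.6%, and 4 had groups that did not overlap, beside 34.4%. The median log2 fold change of the list was -0.05. TRIM14, which protects cGAS from degradation, was at 21.9 ± 1.6 FPKM in shNC and 16.5 ± 1.07 FPKM in shPQBP1 without overlap (log2 fold change -0.41, adjusted p = 0.0724). ZCCHC3, which helps cGAS to bind DNA, was at 4.32 ± 0.244 and 5.64 ± 0.409 FPKM, also without overlap (0.38, adjusted p = 0.0897). Both passed after the GC and length correction, with an adjusted p of 0.036 for TRIM14 and 0.0207 for ZCCHC3, which with PQBP1 made 3 of 13 genes (23.1%) beside 8.84% of all genes. IFI16, a further DNA sensor, had the largest positive log2 fold change of the list (0.49, adjusted p = 0.346, and 0.17 without shNC replicate 1), and RNF185, a ubiquitin ligase of cGAS, the largest negative one after PQBP1 (-0.57, adjusted p = 0.601). The RNF185 value rests on shNC replicate 1, at 18.6 FPKM beside 3.05 to 6.18 FPKM in the other 5 samples, and turns to 0.19 without it. The most abundant members BANF1 (87.4 ± 33.8 and 79.5 ± 18.4 FPKM), which keeps cGAS off nuclear DNA, NONO and XRN2 had log2 fold changes of -0.10, -0.10 and -0.05, and that of BANF1 turned to 0.20 without shNC replicate 1 and to 0.10 without shPQBP1 replicate 2.

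Of 16 tested genes of STING trafficking and turnover, none passed the adjusted threshold by limma, and 6 had an unadjusted p under 0.05 (5 lower, 1 higher), beside 23.6% of all tested genes, with a median log2 fold change of -0.15. SCAP, which binds STING and recruits IRF3 to it, came nearest, with 7.18, 6.58 and 6.47 FPKM in shNC and 4.61, 4.98 and 5.02 FPKM in shPQBP1 (log2 fold change -0.46, adjusted p = 0.0502), and it passed after the GC and length correction (-0.33, adjusted p = 0.0286), as 1 of the 16 genes (6.25%) beside 8.84% of all genes. ARF1, a small GTPase of the Golgi, was at 115.18, 50.35 and 92.48 FPKM in shNC and 37.57, 39.91 and 37.23 FPKM in shPQBP1 (-1.09, adjusted p = 0.106). Every knockdown sample of both genes was below every control. TRIM32, a ubiquitin ligase that acts on STING, split within both groups, with 1 of 3 controls and 2 of 3 knockdown samples at 12.46 to 19.31 FPKM and the others at 1.83 to 2.36 FPKM, and its log2 fold change of 1.25 had an adjusted p of 0.498. SURF4 and TMED2, abundant cargo receptors between endoplasmic reticulum and Golgi, had log2 fold changes of 0.33 and -0.03. That of SURF4 turned to -0.13 without shNC replicate 3, and ARF1 passed the adjusted threshold without shNC replicate 2 (adjusted p = 0.0212).

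The adaptors of TBK1 and IKKε showed no called change, with 2 of 11 tested genes at an unadjusted p under 0.05 by limma, beside 23.6% of all tested genes, and a median log2 fold change of 0.18. TBKBP1 was lower in every knockdown sample (2.29 ± 0.488 and 1.37 ± 0.132 FPKM, -0.69, adjusted p = 0.0956). TAX1BP1 was higher in every knockdown sample (6.80 ± 1.83 and 10.3 ± 0.997 FPKM, 0.63, adjusted p = 0.157, and 0.39 without shNC replicate 1), and TANK had a log2 fold change of 0.48 with overlapping groups. HSP90AA1, the most abundant of the list (404.9 ± 91.6 and 489.6 ± 40.4 FPKM), and OPTN, a ubiquitin-binding adaptor, had log2 fold changes of 0.30 and 0.10 (0.12 and 0.06 without shNC replicate 1). In the parallel arm of RNA sensing, 0 of 8 tested genes passed the adjusted threshold by limma, beside 2.91% of all tested genes, and 3 had an unadjusted p under 0.05, beside 23.6%. MAVS, the mitochondrial adaptor of that arm, was at 7.98, 6.85 and 7.23 FPKM in shNC and 3.08, 6.20 and 3.05 FPKM in shPQBP1 (-0.90, adjusted p = 0.134, and 0.0328 without shPQBP1 replicate 2). The RNA sensor RIG-I (DDX58) differed by -0.01 (-0.21 without shNC replicate 1), the related IFIH1 by 0.38 (adjusted p = 0.259, and 0.21 without that library), and TRIM25, the ubiquitin ligase of RIG-I, by -0.31 (adjusted p = 0.122) on the log2 scale. EIF2AK2, the kinase PKR, differed by 0.13, and its sign turned without shNC replicate 1 (-0.01) and after the GC and length correction (-0.22). After the GC and length correction 1 of the 8 genes of this arm (12.5%, beside 8.84% of all genes) passed, RNF135, a ubiquitin ligase of RIG-I (0.35, adjusted p = 0.0433).

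Of 15 tested genes of interferon receptors, JAK kinases, STATs and their regulators, 1 passed an adjusted p of 0.05, beside 2.91% of all tested genes. At an unadjusted p under 0.05 there were 5 (2 higher and 3 lower), beside 23.6%, and 8 had groups that did not overlap, beside 34.4%. The gene past the adjusted threshold was STAT3, which fell (15.43, 13.82 and 14.39 FPKM in shNC, 9.73, 10.59 and 10.04 FPKM in shPQBP1). Its log2 fold change was -0.52 (SE 0.08, adjusted p = 0.0315), and of the fits that left out 1 sample each, the one without shNC replicate 1 kept the call (adjusted p = 0.0333) and the other 5 did not (0.0759 to 0.147). STAT3 mainly serves cytokines of the interleukin-6 family and is no subunit of ISGF3. The receptor chain IFNAR1 (0.12) and the kinases JAK1 (0.21) and TYK2 (0.15) were within 0.25 on the log2 scale in the fit of all samples, each with an adjusted p over 0.2. IFNAR1 turned to -0.01 without shNC replicate 1 and to -0.07 after the GC and length correction. JAK1 was at 0.26 without shNC replicate 2, and TYK2 at 0.28 after that correction. The other receptor chain IFNAR2 was lower in every knockdown sample, at 3.14 ± 0.349 and 2.08 ± 0.686 FPKM (-0.61, adjusted p = 0.180). Its nearest values were 2.90 FPKM in shNC and 2.87 FPKM in shPQBP1 replicate 1. JAK2, which serves interferon-γ among other cytokines, was higher in every knockdown sample, at 2.64 ± 1.01 and 4.43 ± 0.586 FPKM (0.79, adjusted p = 0.190, and 0.44 without shNC replicate 1). PTPN11, one of the 3 most abundant genes of this list, had a log2 fold change of 0.35 (adjusted p = 0.286, and 0.14 without shNC replicate 1). USP18, a feedback inhibitor that binds IFNAR2, was at 10.2 ± 1.28 and 7.09 ± 0.584 FPKM (-0.51, adjusted p = 0.0828, and 0.0382 after the GC and length correction, where 2 of 15 genes of the list passed, 13.3% beside 8.84% of all genes).

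The other IRF genes were mostly low or alike. IRF2, a repressor of many IRF1 targets, was at 8.80 ± 0.272 and 8.77 ± 0.295 FPKM, with a log2 fold change of 0.00. Its corepressors IRF2BP1 and IRF2BP2 differed by -0.40 (-0.23 without shNC replicate 1) and 0.18, and IRF2BPL by 0.09. After the GC and length correction these 3 values were -0.22, 0.19 and 0.22. Of the 4 tested genes none had an unadjusted p under 0.05 by limma without that correction, beside 23.6% of all tested genes. IRF4 was near 0, and IRF5 was at 0.207 ± 0.0569 FPKM in shNC and 0.0567 ± 0.0289 FPKM in shPQBP1, too low to be tested with the filter (log2 fold change -0.97, adjusted p = 0.178 without it).

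Of 12 interferon genes, 3 had a row, and none reached the mean of 1 FPKM needed for the test. IFNB1, the interferon-β gene that IRF3 and IRF7 act on, read 0.48, 0.69 and 0.49 FPKM in shNC and 1.08, 1.32 and 0.82 FPKM in shPQBP1. Every knockdown sample was above every control. In the fit without the filter on low values the log2 fold change of IFNB1 was 0.84 (unadjusted p = 0.0124, adjusted p = 0.216), and the exact permutation p was 0.1.

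Of 56 interferon-stimulated genes, which are the targets of ISGF3 and the IRFs, 48 were tested, and 1 rose and 1 fell at an adjusted p under 0.05, beside 2.91% of all tested genes (197 higher and 135 lower). IFIT2, which binds RNA and restricts viral translation, rose from 5.03, 6.63 and 6.95 FPKM to 14.29, 13.40 and 13.22 FPKM, a log2 fold change of 1.14 (SE 0.14, adjusted p = 0.0181). Its call was kept without shNC replicate 1 or 3 and lost without any of the other 4 samples (adjusted p 0.0518 to 0.0937). MX1, an antiviral GTPase, fell from 3.63, 3.47 and 3.08 FPKM to 0.87, 1.08 and 0.87 FPKM, a log2 fold change of -1.75 (SE 0.14, adjusted p = 0.00479). Neither gene had overlapping groups. At an unadjusted p under 0.05 there were 16 of 48 (6 higher and 10 lower), beside 23.6% of all tested genes, and the median of the list was -0.05. The sum of the list was 812.0 to 973.94 FPKM in shNC and 865.15 to 946.57 FPKM in shPQBP1.

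Single interferon-stimulated genes lay on both sides. BST2, the virion tether, was higher in every knockdown sample (0.810 ± 0.245 and 1.83 ± 0.206 FPKM, 1.12, adjusted p = 0.0620, and 0.0422 without shNC replicate 1), and OAS1, which makes the activator of RNase L, was lower in every one (7.09 ± 0.976 and 4.76 ± 0.229 FPKM, -0.56, adjusted p = 0.0680). The ubiquitin-like modifier ISG15 (53.5 ± 7.64 and 49.8 ± 5.53 FPKM, -0.10, adjusted p = 0.651) and IFIT1 (28.4 ± 3.93 and 25.1 ± 1.65 FPKM, -0.17, adjusted p = 0.395) had overlapping groups. So did the abundant IFITM3 (190.3 ± 47.3 and 175.4 ± 11.3 FPKM, -0.09) and IFI6 (73.7 ± 17.2 and 98.2 ± 12.5 FPKM, 0.43, adjusted p = 0.212). The sign of ISG15 turned without shNC replicate 1 (0.02) and after the GC and length correction (0.08). That of IFITM3 turned without shNC replicate 2 (0.10) and after the correction (0.05). IFIT1 was at -0.06 without shNC replicate 2 and at -0.35 after the correction. After the GC and length trend was removed, 11 of the 48 genes (22.9%) passed an adjusted p of 0.05, beside 8.84% of all genes in that fit, with IFIT2, IFI6, IFI27, BST2 and LGALS3BP higher and MX1, OAS1, EPSTI1, PLSCR1, GBP2 and TDRD7 lower.

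**Figure D4:**
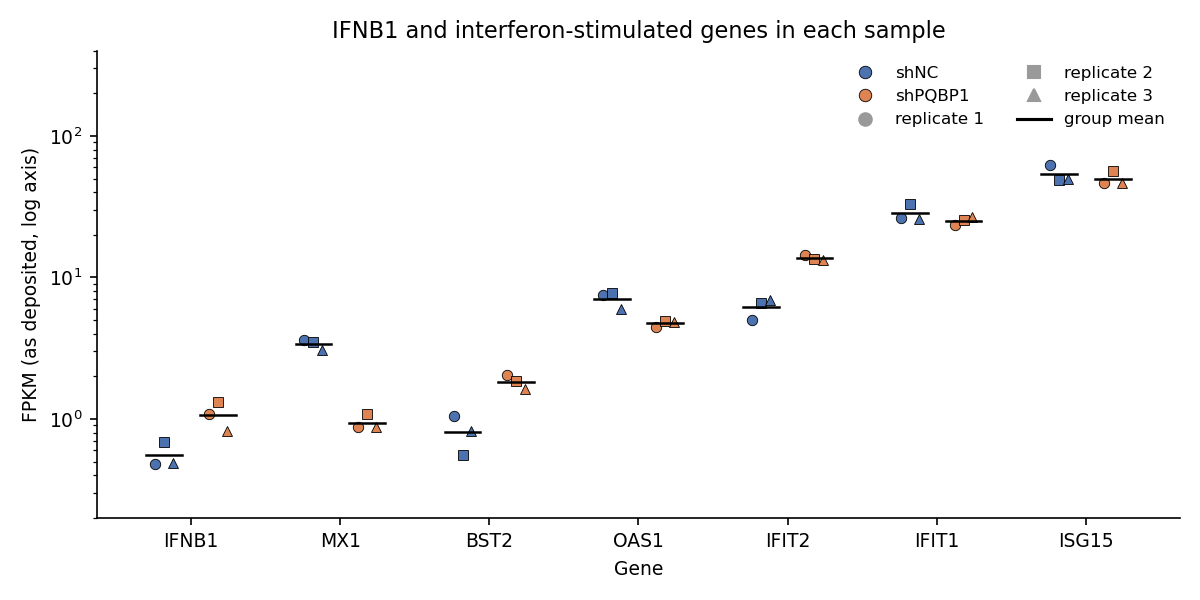
FPKM on a log axis of IFNB1 and 6 interferon-stimulated genes, with 1 symbol per sample (blue for shNC, orange for shPQBP1, the shape for the replicate number) and a bar at the group mean. MX1 and OAS1 lie lower and IFNB1, BST2 and IFIT2 higher in all 3 shPQBP1 samples, while IFIT1 and ISG15 overlap.

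**Figure D5:**
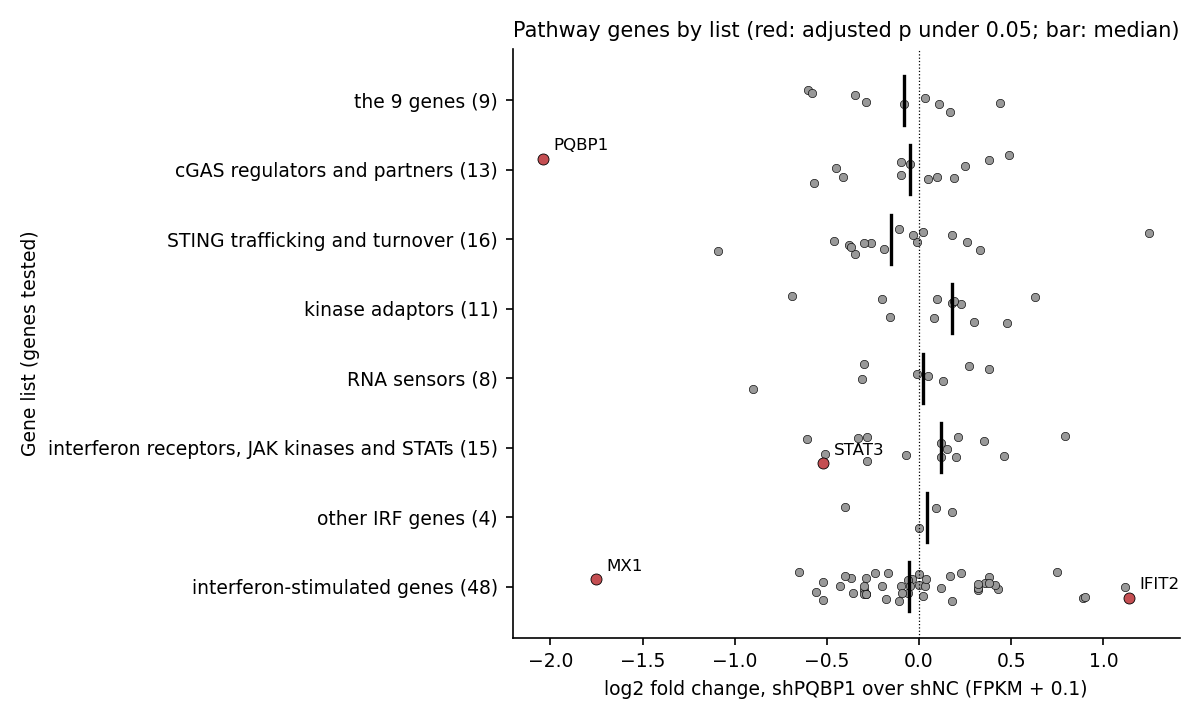
Log2 fold change (shPQBP1 over shNC, on log2 of FPKM + 0.1) of the tested genes of each list, with 1 point per gene, red where the adjusted p was under 0.05, and a bar at the median of the list. The medians lie between -0.15 and 0.18, and the 4 red genes are PQBP1, STAT3, MX1 and IFIT2.

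Since IRF1 and IRF9 are themselves targets of STAT factors, and IFIT1, ISG15 and MX1 are targets of IRF3 and ISGF3, the 250 bases before their RefSeq start sites (GRCh38.p14) were searched for an IRF motif (GAAANNGAA, both strands) and a STAT motif called GAS (TTCNNNGAA, which reads the same on both strands). Promoters were held for 5 of the 9 genes (TBK1, IKBKE, IRF1, IRF9 and STAT2). Of 35116 RefSeq promoters, 6.9% held the IRF motif and 6.6% the GAS motif in this window. IRF1 and IRF9 each held 1 GAS motif, and TBK1, IKBKE and STAT2 held neither motif. The matches are printed 5′ to 3′ on the strand of the gene, with the matched bases in capitals and 10 bases on each side, to show which of these letters the genes share.
IRF1: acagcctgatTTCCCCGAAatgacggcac
IRF9: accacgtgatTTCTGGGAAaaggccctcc
ISG15: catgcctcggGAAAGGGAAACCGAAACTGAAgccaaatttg
IFIT1: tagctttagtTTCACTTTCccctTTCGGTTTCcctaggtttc
MX1: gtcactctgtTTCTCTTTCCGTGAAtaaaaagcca
The printed stretch of IRF1 lies at chr5:132490879-132490907 (minus strand) with its match at -124 to -116 relative to the start, and that of IRF9 at chr14:24161192-24161220 (plus strand) with its match at -63 to -55. ISG15 held 3 overlapping IRF motifs (chr1:1013374-1013414, plus strand), IFIT1 held 2 on the opposite strand (chr10:89392498-89392539, plus strand as printed), and MX1 held an IRF motif that overlaps a GAS motif before 1 of its 3 start sites (chr21:41431845-41431879, plus strand). ISG15 and IFIT1, with 3 and 2 matches, differed by -0.10 and -0.17 on the log2 scale, whereas MX1 fell by 1.75. After the GC and length correction the log2 fold changes of ISG15, IFIT1 and MX1 were 0.08, -0.35 and -1.72. Of 3 other promoters searched, that of BST2 (log2 fold change 1.12) held 2 IRF and 2 GAS motifs, and those of OAS1 (-0.56) and IFNB1 (0.84 without the filter) held 1 GAS motif each. A match describes letters in this window and not the binding of a factor. Both patterns are strict, and sites that depart from them by single letters were not searched for. A promoter listed without a motif, or OAS1 and IFNB1 without an IRF motif, may thus still hold a site for these factors.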

How the data were processed

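RNA-seq of 3 shNC and 3 shPQBP1 HEY samples was used. Per the labels and the submitters' processing notes, reads were mapped to hg38 with HISAT2 (version 2.2.0), handled with SAMtools (version 1.9), assembled with StringTie (version 1.3.0), and the groups were compared with edgeR. The annotation release is not given in the sources used here. The values are FPKM per gene and sample as deposited by the authors, without pooling of replicates. The table also holds the authors' fold changes, p-values and q-values, which were not used. FPKM values hold no counts, and a search for steps of whole reads in 3048 to 3388 single-exon genes per sample found none (strength 0.087 to 0.107), so depth is unknown and edgeR was not run.

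The 11413 of 32679 genes whose FPKM averaged 1 or more across all 6 samples were tested on log2(FPKM + 0.1) with limma (version 3.58.1, R 4.3.3, lmFit and eBayes with trend), two-sided, and p-values were adjusted by Benjamini-Hochberg over all of them. Fold changes on this scale understate the change of low genes. An exact permutation test (scipy 1.17.1) was added for single genes. Sample numbers were not used as pairs. GC content and length came from canonical transcripts of GENCODE release 44 (99.8% of tested genes), and their trend was removed with splines of 5 degrees of freedom. The code was tested on simulated data. The genes and lists were chosen with earlier results of these data known. Named are the 9 genes, PQBP1, canonical pathway genes and, of each list, genes at an adjusted p under 0.05, the 3 with the largest absolute log2 fold change and the 3 most abundant. TRIM14, ZCCHC3, OAS1, USP18 and IRF5 were named after their values were seen, as were the genes called after GC correction. Alternatives were other scalings, filters and pseudocounts, no trend, the replicate number as a block, GC and length correction, and each sample left out in turn. Some genes of the lists are not reported here by name.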

Additional observations from a re-analysis of the deposited data

How the results depend on the processing

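Of 135 fits of the 9 genes under alternatives, 131 kept the direction and side of the threshold, and 0 reached an adjusted p under 0.05 (at a mean FPKM of at least 10 none of the 9 genes was left). IRF3 turned to -0.03 with quantile normalization and to -0.11 without shPQBP1 replicate 2, and STAT2 to 0.01 without shNC replicate 1 and 0.05 without shPQBP1 replicate 1 (ranges with single samples left out -0.11 to 0.15 and -0.23 to 0.05). The count of genes without overlap (3) was 3 to 6 when single samples were left out, which can only keep or raise it, and 6 without shNC replicate 2, where 47.2% of all tested genes did not overlap.

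For all genes, 332 calls at an adjusted p under 0.05 became 190 with every gene above 0, 211 at a mean FPKM of at least 10 and 1006 after GC and length correction, and ranged from 30 (without shPQBP1 replicate 3) to 464 (without shNC replicate 1) when single samples were left out. It was also under 100 without shNC replicate 2 (93), shNC replicate 3 (65), shPQBP1 replicate 1 (46) and shPQBP1 replicate 2 (36). The 173 genes past 2-fold became 662 with every gene above 0, where 30717 genes were tested instead of 11413. Their number was 40 at a mean FPKM of at least 10 and 83 with a pseudocount of 1. It ranged from 144 to 312 when single samples were left out, with 312 without shNC replicate 2. The 4 calls in the pathway lists became 1 at a mean FPKM of at least 10, 18 of 115 (15.7%, beside 8.84% of all genes) after GC and length correction, and 2 to 6 when single samples were left out, with 2 without shPQBP1 replicate 1 or 3. MX1 and PQBP1 kept their calls when any single sample was left out. IFIT2 kept its call without shNC replicate 1 or 3 and lost it without any of the other 4 samples (adjusted p up to 0.0937). The causes were not tested.

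Same-numbered samples did not deviate together (correlations -0.186, -0.138 and -0.011). These correlations also carry the GC trends of single libraries, so they cannot show whether the samples were prepared in numbered sets. With the replicate number as a block, 0 genes and 0 of the lists passed (PQBP1 at an adjusted p of 0.0686). The block with GC and length correction gave 19 and 2, with PQBP1 at 0.0478.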

Other observations

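Of 10 markers of ovarian carcinoma and epithelium, 6 were tested, and 1 passed an adjusted p of 0.05, beside 2.91% of all tested genes. This was MSLN, which codes for the surface protein mesothelin and rose. It read 14.43, 13.98 and 11.96 FPKM in shNC and 23.08, 25.56 and 22.81 FPKM in shPQBP1, a log2 fold change of 0.82 (SE 0.10, limma adjusted p = 0.0187, 0.00561 to 0.148 under the alternatives, past the threshold without shNC replicate 1 and not without any other single sample). PAX8, a transcription factor of the Müllerian lineage, was at 15.70, 14.89 and 12.33 FPKM in shNC and 18.41, 24.08 and 19.79 FPKM in shPQBP1, without overlap (0.53, adjusted p = 0.102). WT1, a transcription factor of serous ovarian tumors, was below the filter and lay the other way without overlap, at 0.63, 0.71 and 0.68 FPKM in shNC and 0.31, 0.34 and 0.45 FPKM in shPQBP1 (-0.74 without the filter, adjusted p = 0.212). The median of the tested genes of the list was 0.27. KRT18 (81.4 ± 7.34 and 89.6 ± 4.85 FPKM, SD, n = 3 each), KRT8 and KRT7 overlapped between the groups, with log2 fold changes of 0.14, 0.09 and -0.16. After the GC and length correction 4 of the 6 tested markers passed, MSLN, PAX8, KRT18 and KRT8, all higher, beside 8.84% of all genes in that fit (1006 of 11385, where the fit without correction called 332 of 11413).

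Among genes below the filter on low values, SOCS1, a feedback inhibitor of JAK kinases, was at 0.43 ± 0.0608 FPKM in shNC and 0.783 ± 0.206 FPKM in shPQBP1 without overlap, and the chemokine gene CXCL11 was at 0.703 ± 0.163 and 1.11 ± 0.0473 FPKM. RSAD2, the antiviral enzyme viperin, was at 0.947 ± 0.189 and 0.56 ± 0.0794 FPKM. In the fit without the filter their log2 fold changes were 0.72, 0.61 and -0.66, with adjusted p-values by limma of 0.270, 0.263 and 0.272. These 3 genes were chosen after their values were seen.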
